A study of Mus musculus with 6 samples.

Results

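Eph receptors and their membrane-bound ligands, the ephrins, were followed in MC3T3-E1, a mouse line of bone-forming precursor cells derived from the skull vault. The 10 genes chosen by symbol were Epha2, Epha3, Epha4, Ephb2, Ephb3, Ephb4, Efna1, Efna5, Efnb1 and Efnb2, and 9 of them were found among the 26187 genes listed. Epha3 was not analysed here. All 9 were among the 12590 genes tested, which had a mean of at least 0.5 FPKM (fragments per kilobase of transcript, scaled to library size) over the 6 libraries. Both groups were the same cell line, with no genetic change given in the labels, and both were kept in OC medium, an osteogenic culture medium, for 2 days. The 3 libraries of the PAKG group came from cells given PAKG–8diol–PEG(S) MPs, small polymer microparticles built from the metabolite α-ketoglutarate, a diol and PEG, at 30 μg/mL. The 3 libraries of the OC group came from cells without MPs. All cells were of 1 line, and the sources do not say whether the replicates were separate cultures, so the p-values reflect how far these samples vary, and that spread may be technical.

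Eph receptors are a large family of receptor tyrosine kinases that bind ephrins held on the surface of a neighbouring cell. Ephrin-A ligands are tied to the membrane by a lipid anchor and bind mostly EphA receptors, whereas ephrin-B ligands span the membrane and bind mostly EphB receptors. Signals run into the receptor-bearing and the ephrin-bearing cell, and in bone EphB4 on osteoblasts and ephrin-B2 on osteoclasts are known for this exchange.

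The libraries held an estimated 33200000 to 42000000 fragments each, read roughly from the spacing of low FPKM values, since the tables hold no counts. All 8 osteoblast-lineage markers were present, with a summed level of 4950 to 5960 FPKM in OC and 7040 to 7750 FPKM in PAKG. This sum came mostly from Col1a1, with means of 3100 FPKM in OC and 4430 FPKM in PAKG, and Col1a2, with 1790 and 2410 FPKM. Of the 8 markers, 6 were called higher in PAKG at a limma adjusted p under 0.05, and Spp1 (osteopontin) was called lower. Among all genes tested 5.97% were called higher and 8.73% lower. With the replicate number as a block in the fit 7 markers were higher and Spp1 again lower, beside 12.3% and 17.1% of all genes. Endothelial cells are also known for EphA2, EphB4 and ephrin-B2, and the 3 endothelial markers found of 6 summed to at most 0.03 FPKM in every library. Epithelial markers summed to 0.03 to 0.62 FPKM. The neural list summed to 6.37 to 7.37 FPKM in OC and 10.1 to 10.3 FPKM in PAKG, and only Tubb3 of its 4 genes had a mean above 0.5 FPKM. Tubb3, a neuronal β-tubulin, rose from 6.48 ± 0.618 to 9.97 ± 0.131 FPKM (SD, n = 3 each, limma adjusted p = 0.00346), and its part in the results given here was not tested. Map2 of that list averaged 0.347 FPKM in OC and 0.213 FPKM in PAKG, and Snap25 and Rbfox3 were at or under 0.06 FPKM in every library. The macrophage and osteoclast list summed to 85.9 to 98.5 FPKM in OC and 103 to 120 FPKM in PAKG, mostly from Ctsk, and 0 of its 2 tested genes were called by limma (1 at an unadjusted p under 0.05). With the replicate block Ctsk was called higher, at 92.9 ± 6.82 FPKM in OC and 112 ± 8.83 FPKM in PAKG (SD, n = 3 each, limma adjusted p = 0.00724). The rest of that list was low. Ptprc was at or under 0.01 FPKM and Acp5 at or under 0.04 FPKM in every library. Cd68 averaged 0.56 FPKM in OC and 0.53 FPKM in PAKG, Csf1r averaged 0.09 and 0.263 FPKM, and Adgre1 was not found. In bulk RNA, a change in the number of cells of a type and a change in RNA per cell cannot be told apart. The second principal component, with 25.1% of the variance, set replicate 2 of both groups apart from the other libraries. Mitochondrial genes took 10.84% to 11.88% of the summed FPKM in OC and 9.53% to 10.71% in PAKG, without overlap, and the part of this difference in the results was not tested.

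The promoters of Epha2, Efna5 and Efnb2 are shown because these genes had the largest fold changes of the 9. Each is the 250 bases before the start that RefSeq gives on GRCm38.p6, written 5′ to 3′ on the gene's strand, and capitals mark motif matches on either strand. The motifs searched were the GC box GGGCGG, the CCAAT box CCAAT, the TATA box TATAAA and the AP-1 motif TGANTCA, and no marked matches share bases.
Epha2, chr4:141300971-141301220, plus strand: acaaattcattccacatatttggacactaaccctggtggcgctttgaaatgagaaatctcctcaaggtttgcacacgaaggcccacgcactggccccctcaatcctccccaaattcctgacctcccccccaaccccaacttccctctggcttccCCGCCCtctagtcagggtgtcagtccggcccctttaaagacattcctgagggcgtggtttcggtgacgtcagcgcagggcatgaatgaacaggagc
Efna5, chr17:62881318-62881567, minus strand: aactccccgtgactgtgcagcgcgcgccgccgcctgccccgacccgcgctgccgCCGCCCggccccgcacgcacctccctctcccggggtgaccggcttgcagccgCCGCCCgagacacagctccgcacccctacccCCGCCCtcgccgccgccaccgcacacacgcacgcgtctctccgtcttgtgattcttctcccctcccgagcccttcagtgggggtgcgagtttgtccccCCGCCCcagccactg
Efnb2, chr8:8661243-8661492, minus strand: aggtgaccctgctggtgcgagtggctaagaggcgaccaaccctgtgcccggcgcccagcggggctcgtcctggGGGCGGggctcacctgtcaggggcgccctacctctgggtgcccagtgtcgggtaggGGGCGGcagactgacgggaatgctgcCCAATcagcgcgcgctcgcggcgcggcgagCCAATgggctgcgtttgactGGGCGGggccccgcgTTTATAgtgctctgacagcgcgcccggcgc
The Epha2 window held 1 GC box and none of the other motifs. The Efna5 window held 4 GC boxes, and the Efnb2 window held 3 GC boxes, 2 CCAAT boxes and 1 TATA box. GC content was 55.6% for Epha2, 74.8% for Efna5 and 72.0% for Efnb2, beside a median of 52.4% over 32851 RefSeq mouse promoter windows of the same length. The CpG dinucleotides numbered 9, 32 and 27 in that order, beside a median of 6. Windows were found for all 9 genes, and 7 of the 9 held a GC box, 5 a CCAAT box, 1 a TATA box and 0 the AP-1 motif. Over all windows the shares were 32.7%, 33.8%, 12.4% and 6.7%. Those windows were not limited to expressed genes, as the 9 genes were, nor matched for GC content, so the sets are unlike. Efna1 had 2 windows and was counted once, if either held the motif. The Efna1 and Ephb3 windows run into the annotated genes. The match is of letters only, and binding was not measured.

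Epha2, Efna5, Ephb3 and Efnb2 were higher with PAKG MPs, 4 of the 9 genes, and 0 of 9 were lower (limma, adjusted p under 0.05 over all genes tested). At an unadjusted p under 0.05, 6 of 9 were higher and 0 lower, beside 12.0% and 16.8% of all genes tested. Among all genes tested 5.97% (751) were called higher and 8.73% (1099) lower, and after rescaling of the libraries to TPM 870 were higher and 760 lower. None of the 9 reached the additional 2-fold threshold, which 0.866% of all genes passed in the higher direction. The log2 fold changes of the 9 genes were all above 0, with a median of 0.30, whereas 44.5% of all genes were above 0 and their median was -0.03. The genes were chosen with earlier results of these data known, so these shares describe them and do not test them as a set. In 6 of the 9 genes every PAKG library exceeded every OC library, as in 13.7% of all genes tested. With the replicate number as a block, Ephb2 and Efnb1 were also called, giving 6 of 9, beside 12.3% of all genes called higher in that fit.

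**Figure D1:**
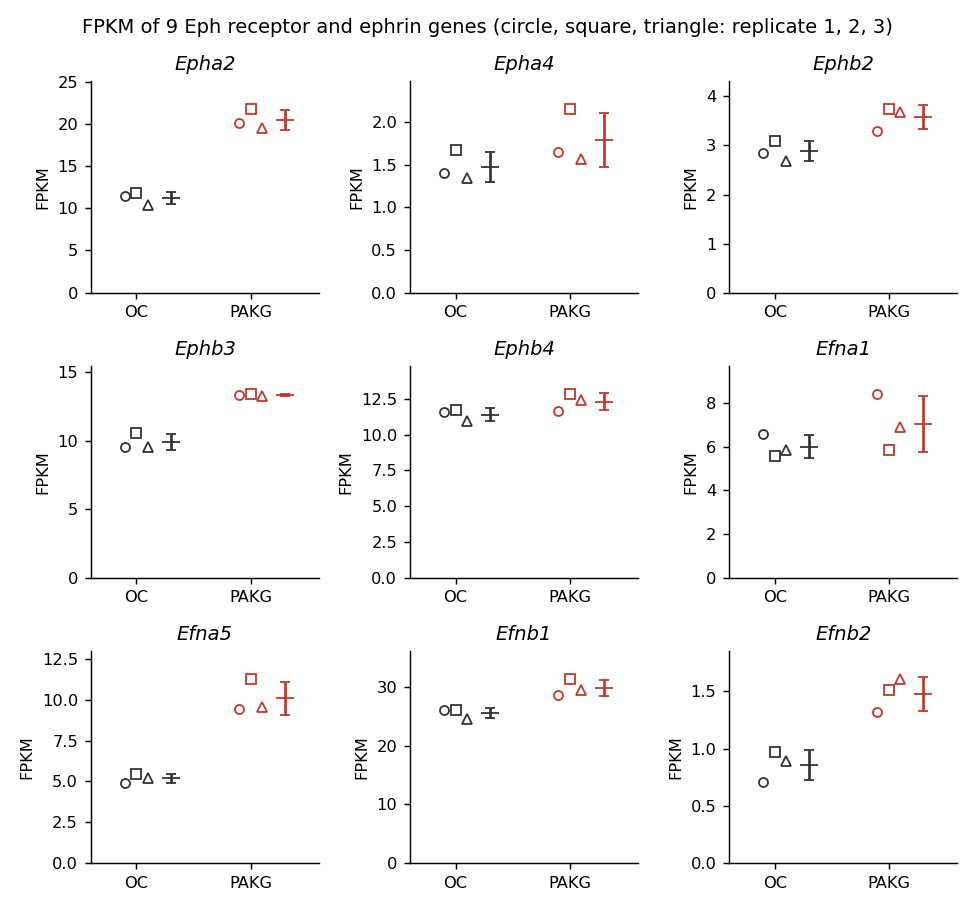
FPKM of each of the 9 genes (y axis, linear from 0) in the 3 OC and 3 PAKG libraries, with each group's mean and SD beside the points. The Epha2 and Efna5 points of PAKG lie at 19.50 to 21.79 and 9.43 to 11.29 FPKM, well clear of OC, whereas the points of Epha4, Ephb4 and Efna1 overlap between the groups.

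Among the EphA receptors, Epha2 rose and Epha4 did not pass the test. Epha2 (ENSMUSG00000006445), a receptor for ephrin-A ligands such as ephrin-A1, lies on chromosome 4 from 141301240 to 141329384 on the plus strand of GRCm38. Its level was 11.50, 11.84 and 10.39 FPKM in OC replicates 1 to 3 and 20.06, 21.79 and 19.50 FPKM in PAKG. All PAKG libraries were above all OC libraries, and the means were 11.2 ± 0.758 and 20.4 ± 1.19 FPKM (SD, n = 3 each). On the log2(FPKM + 0.1) scale the difference was 0.86 (SE 0.08, 95% interval 0.67 to 1.04), a 1.81-fold rise with a limma adjusted p of 0.000792. Only 1.71% of the genes tested had a larger log2 fold change. Epha4 (ENSMUSG00000026235), which is known to bind ephrins of both classes, lies on chromosome 1 from 77367185 to 77515088 on the minus strand. It was measured at 1.40, 1.67 and 1.34 FPKM in OC and 1.65, 2.16 and 1.57 FPKM in PAKG. The groups overlapped, and the log2 difference of 0.26 (SE 0.16, 95% interval -0.10 to 0.63) gave a limma adjusted p of 0.322. Without PAKG replicate 2 the difference was 0.13. Epha2 made up 87.1% to 88.3% of the summed EphA FPKM in OC and 90.2% to 92.0% in PAKG. The other EphA genes listed, Epha1, Epha7, Epha8 and Epha10, were at or under 0.13 FPKM in every library.

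Among the EphB receptors Ephb3 rose, Ephb2 was called only with the replicate block, and Ephb4 was not called. Ephb3 (ENSMUSG00000005958), a receptor for ephrin-B ligands, lies on chromosome 16 from 21204755 to 21223305 on the plus strand. It stood at 9.56, 10.57 and 9.56 FPKM in OC and at 13.33, 13.41 and 13.25 FPKM in PAKG. The groups did not overlap, and the means were 9.90 ± 0.583 and 13.3 ± 0.08 FPKM (SD, n = 3 each). The log2 difference was 0.43 (SE 0.07, 95% interval 0.26 to 0.59), or 1.34-fold, with a limma adjusted p of 0.00735. The 250-base window before its RefSeq start held 2 GC boxes and is not printed, since it runs into the first exon of the annotation used for the coordinates.

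Ephb2 (ENSMUSG00000028664) binds ephrin-B ligands and also ephrin-A5, and lies on chromosome 4 from 136647539 to 136835988 on the minus strand. Its level was 2.84, 3.10 and 2.69 FPKM in OC and 3.30, 3.75 and 3.68 FPKM in PAKG. Every PAKG value was above every OC value, yet the log2 difference of 0.30 (SE 0.10, 95% interval 0.08 to 0.53) missed the threshold, with a limma adjusted p of 0.0783. With the replicate block the limma adjusted p was 0.0327. Ephb4 (ENSMUSG00000029710), the receptor that binds chiefly ephrin-B2, lies on chromosome 5 from 137350109 to 137378669 on the plus strand. It was at 11.60, 11.74 and 10.93 FPKM in OC and 11.66, 12.86 and 12.40 FPKM in PAKG. These ranges overlapped, and the log2 difference was 0.11 (SE 0.07, 95% interval -0.06 to 0.27, limma adjusted p = 0.382). The interval runs from 0.959-fold to 1.21-fold.

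Of the ephrin-A ligands, Efna5 had the largest fold change of the 9 genes. Efna5 (ENSMUSG00000048915), which encodes ephrin-A5, a ligand of several EphA receptors and of EphB2, lies on chromosome 17 from 62604184 to 62881317 on the minus strand. Its level was 4.93, 5.45 and 5.20 FPKM in OC and 9.43, 11.29 and 9.58 FPKM in PAKG. The lowest PAKG library was above the highest OC library by more than the spread of either group. The means were 5.19 ± 0.26 and 10.1 ± 1.03 FPKM (SD, n = 3 each), and the log2 difference of 0.94 (SE 0.09, 95% interval 0.73 to 1.16), or 1.92-fold, had a limma adjusted p of 0.000953. Only 1.31% of the genes tested had a larger log2 fold change. Efna1 (ENSMUSG00000027954), for ephrin-A1, lies on chromosome 3 from 89271733 to 89281142 on the minus strand. It was measured at 6.60, 5.59 and 5.84 FPKM in OC and 8.43, 5.84 and 6.89 FPKM in PAKG. The PAKG values were spread widely and overlapped with OC, with a log2 difference of 0.22 (SE 0.14, 95% interval -0.11 to 0.54, limma adjusted p = 0.357). It was 0.08 without PAKG replicate 1 and 0.34 without PAKG replicate 2.

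Of the ephrin-B ligands, the scarce Efnb2 rose and the abundant Efnb1 missed the threshold without the block. Efnb2 (ENSMUSG00000001300), for ephrin-B2, the main ligand of EphB4, lies on chromosome 8 from 8617434 to 8661242 on the minus strand. It stood at 0.71, 0.97 and 0.89 FPKM in OC and at 1.32, 1.51 and 1.61 FPKM in PAKG. The groups did not overlap, and the log2 difference was 0.73 (SE 0.16, 95% interval 0.35 to 1.10), or 1.66-fold, with a limma adjusted p of 0.0231. The estimated depth gives 113 to 177 fragments for Efnb2 in the OC libraries and 250 to 266 in PAKG, the fewest of the 9 genes, so counting alone gives an error of up to 9.4%. The call was lost when PAKG replicate 3 was left out (limma adjusted p = 0.106) and likewise when OC replicate 1 (0.0666) or OC replicate 3 (0.0715) was. It was also lost when low genes were not filtered (0.0692). Over all alternatives its adjusted p ran from 0.0103 to 0.106, and the difference stayed above 0 in each.

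Efnb1 (ENSMUSG00000031217), for ephrin-B1, a ligand known for its part in skull suture formation, lies on chromosome X from 99136130 to 99148991 on the plus strand. Its level was 26.02, 26.11 and 24.62 FPKM in OC and 28.67, 31.41 and 29.52 FPKM in PAKG. All PAKG libraries were above all OC libraries, and the log2 difference of 0.22 (SE 0.07, 95% interval 0.07 to 0.38) had a limma adjusted p of 0.0682, or 0.0222 with the replicate block. Efnb1 made up 93.6% to 95.7% of the summed ephrin-B FPKM in every library. Efnb2 took 2.61% to 3.51% of that sum in OC and 4.34% to 5.10% in PAKG.

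**Figure D2:**
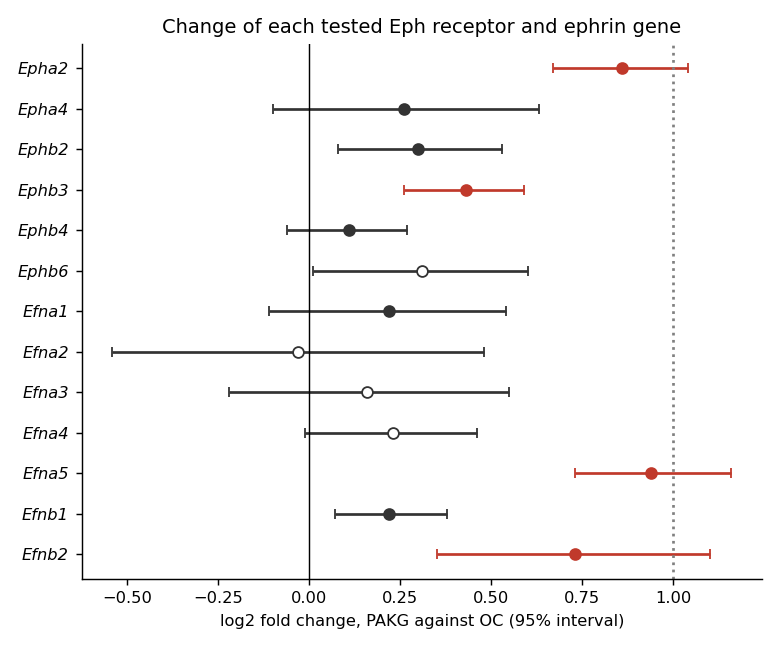
Log2 fold change of PAKG against OC on the log2(FPKM + 0.1) scale (x axis) for the 13 Eph and ephrin genes tested, with 95% intervals. Red marks an adjusted p under 0.05, open circles are genes outside the 9, and the dotted line is the 2-fold threshold, which no point reaches.

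FPKM is per length, so levels can be set side by side across genes. In OC the order was Efnb1, Ephb4, Epha2, Ephb3, Efna1, Efna5, Ephb2, Epha4 and Efnb2, from a mean of 25.6 down to 0.857 FPKM. The ranges of Ephb4 and Epha2 overlapped there, as did those of Epha2 and Ephb3, whereas all other neighbours were separate. In PAKG the order was Efnb1, Epha2, Ephb3, Ephb4, Efna5, Efna1, Ephb2, Epha4 and Efnb2, from 29.9 down to 1.48 FPKM, and only the ranges of Epha4 and Efnb2 overlapped. Epha2 and Ephb3 thus stood above Ephb4 in PAKG, and Efna5 above Efna1. Within single libraries, the ratio of Epha2 to Ephb4 FPKM was 0.951 to 1.01 in OC and 1.57 to 1.72 in PAKG. The ratio of Efna5 to Efna1 went from 0.747 to 0.975 in OC to 1.12 to 1.93 in PAKG. Ephb4 exceeded Efnb2 by 12.1 to 16.3 times in OC and 7.70 to 8.83 times in PAKG. The ratio of Epha2 to Efna5, the genes with the largest fold changes, was 2.00 to 2.33 in OC and 1.93 to 2.13 in PAKG, and these ranges overlapped. These pairs were chosen after their values were seen and were not tested.

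Summed over all listed genes of a class, EphA receptors went from 12.8 ± 0.909 FPKM in OC to 22.4 ± 1.55 FPKM in PAKG (SD, n = 3 each), a ratio of 1.75. EphB receptors went from 26.0 ± 1.13 to 31.5 ± 0.68 FPKM, a ratio of 1.21. The ephrin-A sum was 18.0 ± 0.474 and 25.0 ± 1.32 FPKM, a ratio of 1.39, and the ephrin-B sum 26.9 ± 0.854 and 31.8 ± 1.43 FPKM, a ratio of 1.18. In every class the lowest PAKG sum lay above the highest OC sum. Epha2 and Efna5 carried most of the EphA and ephrin-A differences, and Ephb3 and Efnb1 most of those of the EphB and ephrin-B classes.

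**Figure D3:**
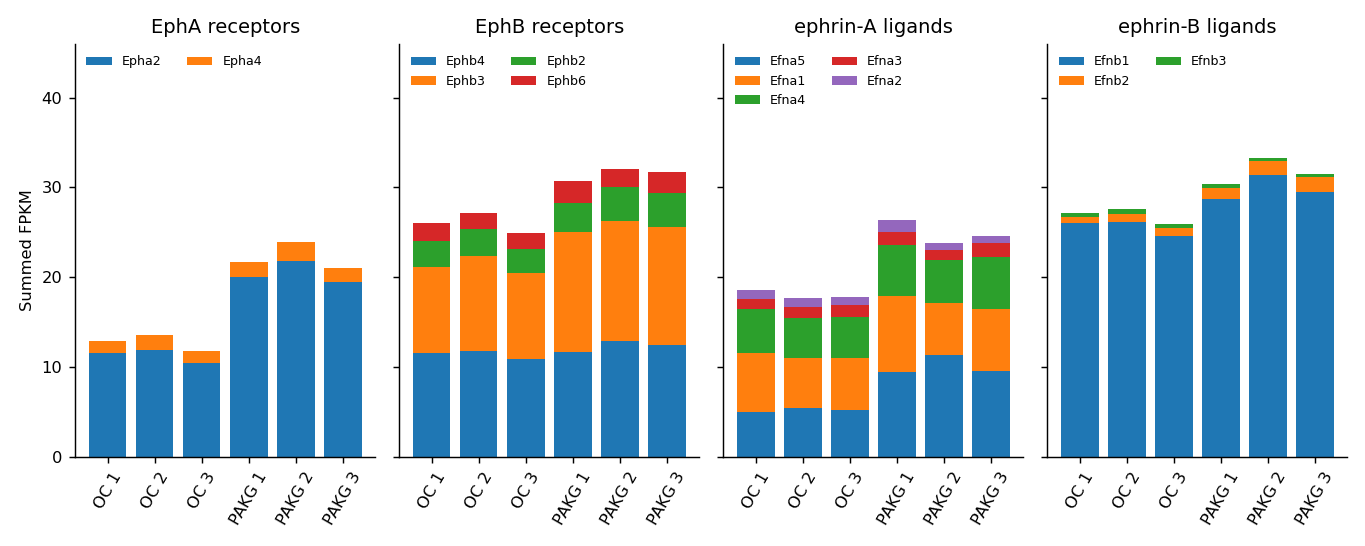
FPKM per library (y axis, linear from 0) stacked by gene for the EphA, EphB, ephrin-A and ephrin-B classes, leaving out genes with a mean under 0.3 FPKM. The EphA stacks are mostly Epha2 and the ephrin-B stacks mostly Efnb1, and every PAKG stack is taller than every OC stack of its class.

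Within its group, replicate 2 was the highest of the 3 libraries for 8 of the 9 genes in OC and 7 of the 9 in PAKG. Ephb3, for instance, stood 0.10 above its OC mean and 0.01 above its PAKG mean in replicate 2 on the log2 scale, and Epha4 stood 0.18 and 0.27 above. Efnb2 was highest in PAKG replicate 3, and for Efna1 replicate 2 was the lowest library in both groups, 0.10 and 0.25 below the mean. In PAKG, Ephb6, Efna2, Efna3 and Efna4 of the same family were lowest in replicate 2, tied with replicate 3 for Efna2. Their deviations there were -0.17, -0.23, -0.27 and -0.18. In OC, replicate 2 was the highest for Efna2 and the lowest for Efna4. How many of all genes were highest in replicate 2 was not counted. Without replicate 2 of both groups Epha2, Efna5, Ephb3 and Efnb2 were called, with log2 differences of 0.85, 0.90, 0.47 and 0.80.

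Among 12 other family genes, 10 were listed, 4 were tested and 0 were called by limma, including with the replicate block (1 was higher at an unadjusted p under 0.05). Ephb6, an Eph receptor without kinase activity, was at 2.07, 1.75 and 1.73 FPKM in OC and 2.46, 2.03 and 2.45 FPKM in PAKG (log2 difference 0.31, limma adjusted p = 0.155). Efna4 was at 4.90, 4.45 and 4.48 FPKM in OC and 5.75, 4.77 and 5.75 FPKM in PAKG, with a log2 difference of 0.23 and a limma adjusted p of 0.182. Without PAKG replicate 2 that adjusted p was 0.0457, and without replicate 2 of both groups 0.0473. Efna3 averaged 1.25 ± 0.15 and 1.42 ± 0.244 FPKM (SD, n = 3 each, limma adjusted p = 0.568), and Efna2 averaged 0.957 ± 0.0874 and 0.960 ± 0.312 FPKM (limma adjusted p = 0.951). Efna1, Efna3 and Efna4 are neighbours on chromosome 3 with gaps of 32.8 and 10.4 kb, and none of them was called.

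Genes that carry Eph and ephrin signals inside the cell, or cut the proteins, were read from 3 lists. Of 49 such genes 49 were listed and 41 tested, of which limma called 3 higher and 3 lower, 7.32% in each direction and near the 5.97% and 8.73% of all genes. Their median log2 difference was -0.02. Among 23 tested adaptors and phosphatases, Rgs3 rose and Sdcbp, Ptpn13 and Nck2 fell, and the list's median was -0.07. Rgs3, a GTPase activator that can bind ephrin-B tails, was at 3.63, 3.23 and 3.42 FPKM in OC and 4.87, 4.68 and 4.84 FPKM in PAKG (log2 difference 0.47, limma adjusted p = 0.00854). Sdcbp (syntenin), a PDZ protein, fell from 36.0 ± 2.57 to 28.9 ± 0.753 FPKM (SD, n = 3 each, limma adjusted p = 0.0302). Ptpn13, a tyrosine phosphatase, fell from 9.66 to 6.20 FPKM on average (limma adjusted p = 0.0374), and Nck2, an adaptor to the actin machinery, from 2.57 to 1.90 FPKM (limma adjusted p = 0.0401).

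Of 11 cytoplasmic kinases, Lyn, a Src-family kinase, rose from 6.52 to 7.95 FPKM on average (limma adjusted p = 0.0492), and the median was -0.04. Of 7 tested proteases, Mmp14, a membrane-bound metalloproteinase of the bone matrix, was at 90.76, 89.99 and 74.54 FPKM in OC and 121.20, 123.07 and 122.78 FPKM in PAKG. Its log2 difference was 0.53 (SE 0.09, limma adjusted p = 0.00852), and the median of the proteases was 0.03. With the block, 5 partner genes (12.2%) were called higher and 9 (22.0%) lower, beside 12.3% and 17.1% of all genes.

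**Figure D4:**
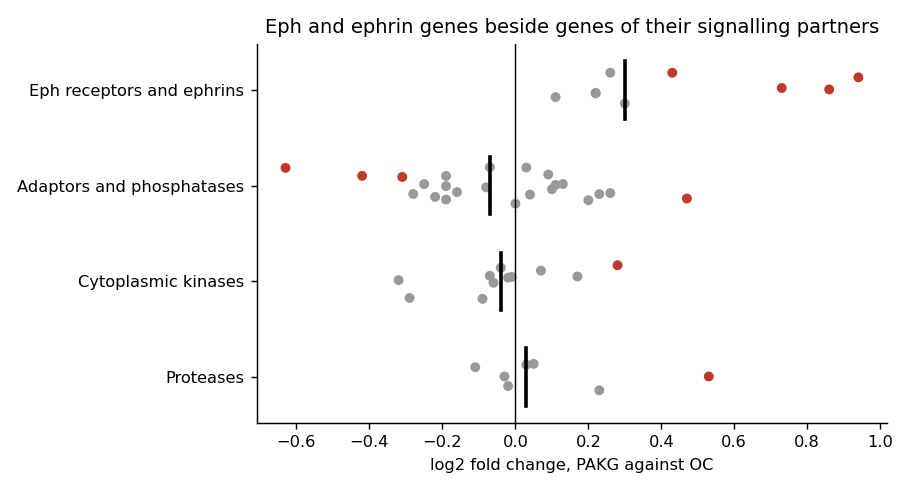
Log2 fold change of PAKG against OC (x axis) for the 9 Eph and ephrin genes and 3 lists of partner genes, 1 point per tested gene, with red for an adjusted p under 0.05 and a black bar at each list's median. The Eph and ephrin points all lie right of 0 with a median of 0.30, and the medians of the partner lists lie between -0.07 and 0.03.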

How the data were processed

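RNA-Seq values of 6 libraries were used, 3 PAKG and 3 OC, grouped by the sample labels. The authors deposited FPKM per gene, 1 table per library, rounded to 2 decimals. The processing notes of the submitters list DESeq2, StringTie, HISAT2, FastQC and cutadapt and the build GRCm38, with no versions or annotation release. A service provider made the poly(A) libraries with a stranded kit and assembled the transcripts. FPKM are not counts, so the study's DESeq2 was replaced by limma 3.58.1 in R 4.3.3 (lmFit, eBayes with trend, 2-sided) on log2(FPKM + 0.1), which understates the change of low genes. Only genes averaging 0.5 FPKM or more were fitted, with Benjamini-Hochberg adjustment over all 12590 and a threshold of 0.05. The fit without the replicate block had 4 residual and 3.54 prior degrees of freedom, and the block leaves fewer residual ones. The steps were tested on simulated data with independent noise in each library, so that test does not cover deviations shared by same-numbered libraries. Depth was estimated from the weak periodicity of low values, and fragment numbers assume the longest transcript, so counting errors are approximate.

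Same-numbered libraries deviated together (r = 0.24, 0.43 and 0.192, against -0.312 to 0.138 for other numbers, with 0.1 as the minimum for pairing). A fit with the replicate block is therefore given too, and the sources do not say what the number marks. PAKG replicate 3 with OC replicate 1 also passed the minimum, at 0.138. Deviations are from the group mean, so they sum to 0 in each group and the r values depend on one another. The genes and lists were chosen with earlier results of these data known. All listed Eph and ephrin genes are accounted for, and up to 3 called genes per direction are named from each partner list; 1 planned list of partner genes is not reported here. Protein sequences, also meant to be shown, were not used here. Coordinates are from GENCODE M21 on GRCm38, in which 99.76% of gene IDs were found. Other settings were pseudocounts of 1 and 0.01, no filter or 1 FPKM, TPM, median-ratio scaling, no trend, the block and each library left out. Leaving out replicate 2 of both groups was chosen after seeing the data. Summaries used Python 3.11.15 (pandas 2.3.3, numpy 2.4.6), and plots used matplotlib 3.10.9.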

Additional observations from a re-analysis of the deposited data

How the results depend on the processing

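Epha2, Efna5 and Ephb3 were called higher in all 15 alternatives, and the log2 difference of each of the 9 genes was above 0 in all 15. Efnb2 was called in 11 of 15. None of the 9 passed the 2-fold threshold in any setting, but Efna5 came close to it. Its log2 difference ran from 0.84 with a pseudocount of 1 to a rounded 1.0 after rescaling to TPM. With the replicate block, Ephb2 and Efnb1 were also called, and it changed no other call among the 13 Eph and ephrin genes tested. Over all genes, the block gave 1554 higher and 2157 lower calls, beside 751 and 1099 without it. Leaving out 1 library at a time gave 332 to 988 higher and 495 to 1239 lower calls, with 332 and 495 without PAKG replicate 3, 432 and 682 without PAKG replicate 1, 486 and 618 without OC replicate 1, and 354 and 518 without OC replicate 3. Leaving out replicate 2 of both groups, chosen after seeing the data, gave 1200 higher and 1553 lower calls. A pseudocount of 1 left 62 higher and 28 lower genes at the 2-fold threshold, beside 109 and 73. The split of calls depended on the scaling, with 870 higher and 760 lower after rescaling to TPM and 900 and 955 after median-ratio scaling. The median log2 difference of all genes lay between -0.038 and 0.013 in every setting run. Efna2, which was not called, turned to 0.01 under TPM and 0.13 without replicate 2 of both groups, and to between -0.26 and 0.08 when 1 library was left out. The cause of these changes was not tested. Epha4, Ephb4 and Efna1 were called in 0 of 15, which does not show that they did not differ, and the FPKM tables give no counts from which their depth could be read directly.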

Other observations

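Genes under the filter of 0.5 FPKM were outside the comparison, and those named here were chosen after their values were seen. Rhbdl2, a rhomboid protease of the cell surface, was at 0.07, 0.02 and 0.12 FPKM in OC and 0.59, 0.75 and 0.48 FPKM in PAKG. In the limma fit without a filter (25742 genes) its log2 difference was 2.08 (SE 0.30, adjusted p = 0.0135). That fit called 544 of all genes higher and 781 lower. The OC values of Rhbdl2 lie around the pseudocount of 0.1 FPKM, so the size of its difference depends on that constant. The groups did not overlap at these low levels, where values are rounded to 2 decimals. Efnb3, for ephrin-B3, averaged 0.483 ± 0.0493 FPKM in OC and 0.407 ± 0.0451 FPKM in PAKG (SD, n = 3 each, limma adjusted p = 0.656), and it was the only listed ephrin gene under the filter.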
